A study of Drosophila melanogaster with 25 samples.

Results

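The data described here compare L3 wing discs that carried the intracellular domain of the cadherin Fat with wild-type wing discs, across all genes. The members were the 6 wing disc libraries of the series' FtICD experiment, 3 FtICD and 3 wild type, out of 25 libraries in all. The FtICD larvae came from a stock in which ubi-Gal4, an ubiquitously active driver, controlled UAS-FtICD-3xFLAG, a tagged Fat intracellular domain, so that expression was not restricted to the wing disc. The endogenous ft gene is not described as altered in that stock. The wild type was w1118, a white-eyed laboratory stock. Larvae of both genotypes were grown at 25 C, and the labels give neither the sex of the larvae nor an age within the third instar. They give replicate numbers without saying whether these stand for separate animals, pools or preparations, so that the p-values here measure the spread between these libraries, which may be technical. The series as a whole asks how altered Fat activity changes RNA levels.

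Fat is a giant atypical cadherin that binds Dachsous on neighbouring cells. In the wing disc, the larval epithelium that forms the adult wing and notum, its intracellular part acts through the myosin Dachs on the Hippo kinases Hippo and Warts, which restrain the growth-promoting coactivator Yorkie, and it takes part in planar cell polarity. The discs of late L3 larvae are also patterned by Hedgehog, Wingless and Dpp signals and respond to the steroid ecdysone, whose pulses time metamorphosis.

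Total counts were 39391783 to 46919355 per FtICD library and 30886093 to 54256664 per wild-type library. Ribosomal RNA took 10.8 to 14.1% of the counts in FtICD and 10.9 to 11.2% in wild type, and mitochondrial mRNAs 0.401 to 0.575% and 0.352 to 0.375%. Levels are in CPM, counts scaled to a common library size with TMM factors, always for replicates 1, 2 and 3 in that order. All 10 markers listed for wing disc epithelium, such as vg, nub, ap and pnr, were tested. At an adjusted p of 0.05, 4 (40%) were lower and 0 higher in FtICD, against 9.97% and 7.67% of all genes tested. Without FtICD replicate 2 or wild-type replicate 2 the counts were 2 and 0. The summed level of the 10 markers was 2227 to 2603 CPM in FtICD and 2536 to 3289 CPM in wild type. The male-specific roX RNAs, which coat the X chromosome, differed between libraries of 1 genotype. lncRNA:roX1, whose exons overlap ec, was at 400.3, 138 and 416 CPM in FtICD and 347, 252 and 96.1 CPM in wild type, with the lowest level of each group in FtICD replicate 2 and wild-type replicate 3. lncRNA:roX2 was at 50.3, 8.70 and 50.9 and 22.8, 19.3 and 5.91 CPM, again lowest in FtICD replicate 2 and wild-type replicate 3. For both genes the groups overlapped (adjusted p = 0.61 and 0.30, edgeR's quasi-likelihood test, p-values adjusted by Benjamini-Hochberg over all genes tested).

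The RNA of ft itself was high in all FtICD libraries. Its gene (FBgn0001075, 2L, 4198404 to 4221796, minus strand, coordinates of BDGP6.54) had 8309, 9195 and 7577 CPM in FtICD against 309, 343 and 288 CPM in wild type. The log2 fold change was 4.74 ± 0.12 (SE, n = 3 and 3, adjusted p = 1.3e-05, by the same test). Counts per gene cannot tell RNA of the transgene from RNA of the endogenous gene. The white gene w (X, 2790599 to 2796466), an eye pigment transporter deleted in w1118 and a common marker on transgenes, was at 234, 215 and 163 CPM in FtICD. In wild type it had 2 counts over the 3 libraries against 26215 in FtICD, a ratio of 12289 (95% exact interval 3402 to 101479, counting error only).

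In all, 1661 of 9416 genes tested passed an adjusted p of 0.05 (called genes, 17.6%). Of these, 722 (7.67%) were higher and 939 (9.97%) lower in FtICD, and 341 (3.62%) and 594 (6.31%) of them at least 2-fold. The median log2 fold change of all genes tested was 0.01. With upper-quartile scaling in place of TMM, 1146 genes were called higher and 831 lower, and that median was 0.10. With the summed roX level as a covariate 1500 genes were called. The first principal component of log2 CPM held 66.8% of the variance and separated the genotypes. Groups did not overlap for 39.6% of all genes tested, and for all but 2 of the called genes. The count fell to 875 without FtICD replicate 2, to 887 without wild-type replicate 2 and to 1031 without wild-type replicate 1. Leaving out each of the 6 libraries in turn, 337 of the higher and 360 of the lower calls held in all 6 fits, and these genes carry most of the description below. The library kit as named keeps no strand, so exon overlaps of at least 50 bases with another gene are named beside called genes. List counts move with single libraries too. Each such library is named where the number called in a described list changes by more than 1.5 times. Lists and members were chosen with earlier results of these data known. Their shares beside that of all genes are therefore a description and not a test.

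**Figure D1:**
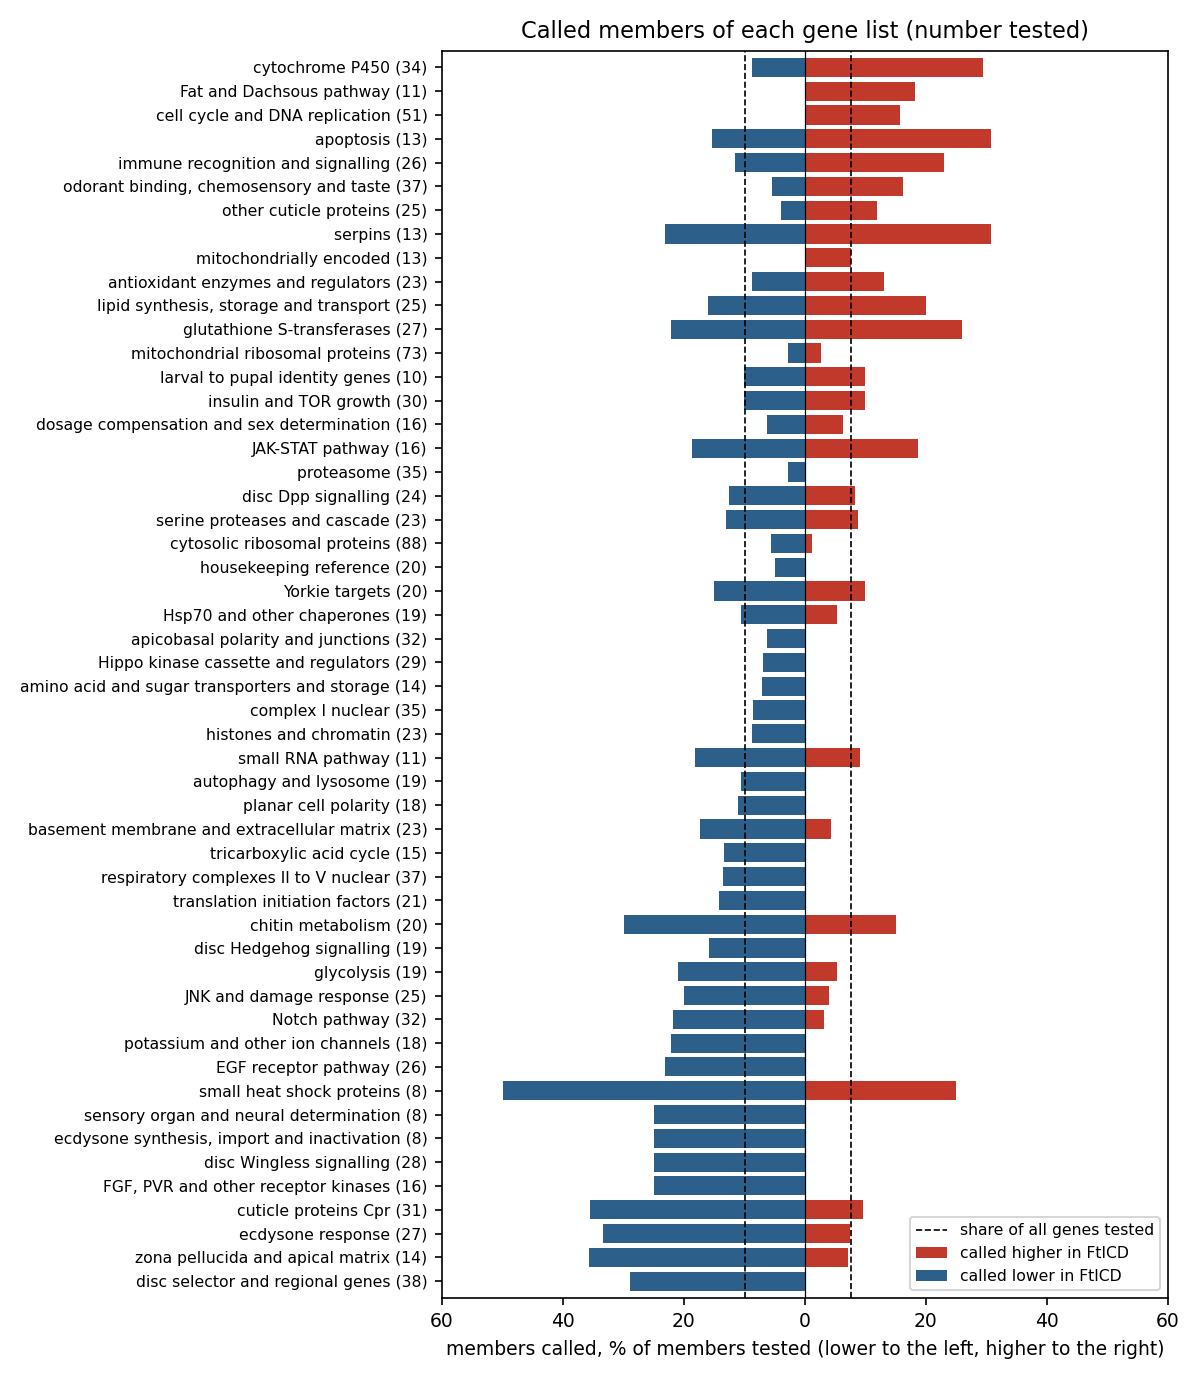
Share of the tested members of each gene list called higher (red, to the right) or lower (blue, to the left) in FtICD than in wild-type wing discs, in percent, with the number of members tested in brackets. The dashed lines mark the shares over all genes tested, 7.67% higher and 9.97% lower. Among the lists that pass the lower line are ecdysone response (9 of 27), Cpr cuticle (11 of 31) and zona pellucida (5 of 14). Cytochrome P450 genes (10 of 34) pass the higher line. Glutathione S-transferases (7 higher and 6 lower of 27) and small heat shock proteins (2 higher and 4 lower of 8) pass both. Several other lists pass a line too. The lists were chosen with earlier results of these data known.

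Part of the lower genes differed within the wild type. Among the 7021 genes whose mean reached 5 CPM, 297 (4.23%) spanned 2-fold or more across the 3 wild-type libraries. Of these, 121 were called lower and 25 higher in FtICD, against 743 lower and 512 higher among all 7021. In 113 of the 121 the lowest wild-type level was in replicate 3, and in 97 the highest was in replicate 1. Over the 297 genes the median log2 ratio to the wild-type mean was 0.47, 0.05 and -0.85 in wild-type replicates 1 to 3 and -1.27, -1.42 and -1.27 in FtICD replicates 1 to 3. The genes concerned are of many functions. The SWI/SNF chromatin remodelling subunit mor, for example, was at 12.8, 12.4 and 8.76 CPM in FtICD and 199, 89.4 and 27.3 CPM in wild type; it was called lower (-3.22 ± 0.66, adjusted p = 0.018), but not without FtICD replicate 2 (0.078), FtICD replicate 3 (0.052) or wild-type replicate 2 (0.052). UQCR-C2, a complex III subunit, was at 7.26, 3.71 and 2.31 against 194, 113 and 21.4 CPM (-4.62 ± 0.85, adjusted p = 0.012, and 0.066 without FtICD replicate 2). Counting only genes whose libraries stayed within 2-fold inside each group, a restriction chosen after this pattern was seen, 581 of 7276 genes were called higher and 585 lower. The pattern's part in each result was not tested. Genes with a 2-fold or wider span in either group are called uneven here, and counts without them are given beside most lists. The restriction also drops genes for which a wide span comes with the change itself, since a level near 0 in a group spans more than 2-fold easily. Of the 495 called genes it drops, 228 had a group mean below 1 CPM, among them w, Spn42De, Ect3, GstD3 and ry.

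**Figure D2:**
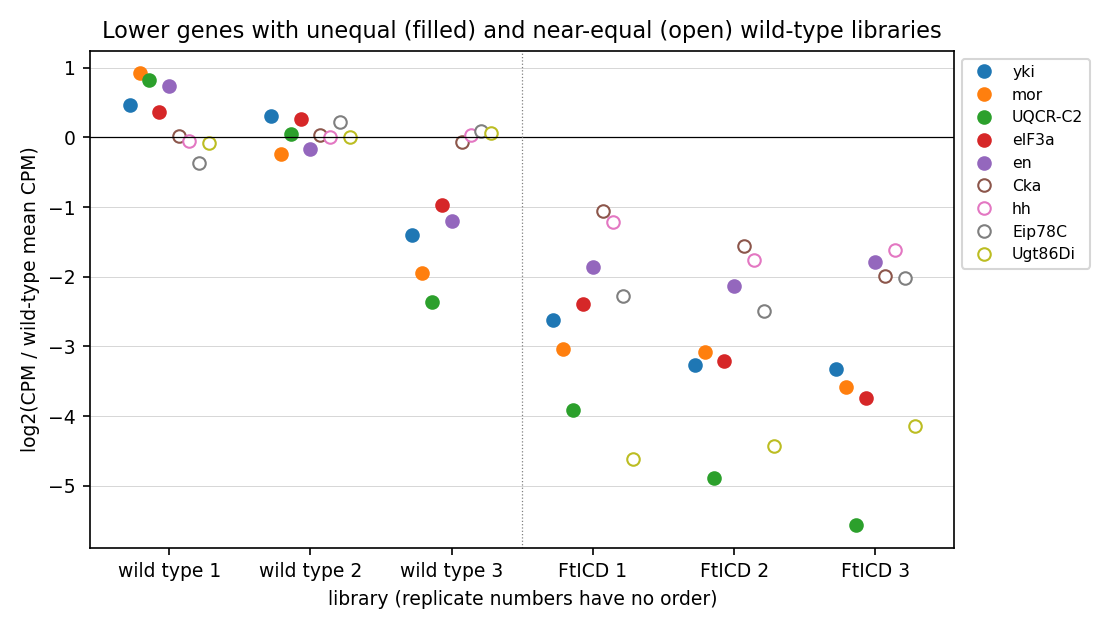
Level of 9 genes called lower in FtICD, by library, as the log2 ratio of CPM to the wild-type mean; each colour is a gene and each point 1 library. Filled points mark genes with unequal wild-type libraries (yki, mor, UQCR-C2, eIF3a, en), in which wild-type replicate 3 lies between the other wild-type libraries and FtICD. Open points mark genes with near-equal wild-type libraries (Cka, hh, Eip78C, Ugt86Di).

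Genes of the ecdysone response that passed the test were mainly lower in FtICD discs. Of 27 tested members, 2 were higher and 9 lower (11 of 27 against 17.6% of all genes), with a list median of -0.71; without uneven genes the counts were 2 and 4. Blimp-1, an ecdysone-induced transcriptional repressor that sets the timing of pupal development, was at 0.396, 0.551 and 2.01 CPM in FtICD and 32.1, 71.4 and 58.1 CPM in wild type, a log2 fold change of -5.77 ± 0.63 (adjusted p = 0.0018). The nuclear receptor gene Hr4, a regulator of the transition from larva to pupa, was at 2.55, 3.98 and 7.01 against 45.3, 169 and 69.3 CPM (-4.39 ± 0.61, adjusted p = 0.0047). Both genes varied more than 2-fold within a genotype, and for both every FtICD library lay far below every wild-type library. Eip78C, another nuclear receptor gene, was more even, with 6.64, 5.71 and 7.94 CPM in FtICD and 24.9, 37.2 and 34.0 CPM in wild type (-2.24 ± 0.20, adjusted p = 0.00072). Hr3, a further receptor of this cascade, had 0 counts in all 3 FtICD libraries and 1.11, 15.2 and 5.54 CPM in wild type, at least 284-fold lower (the 3 FtICD libraries together being set to a floor of 3 counts). Its exons overlap those of CG12912, CG46321 and lncRNA:CR46322, and without FtICD replicate 2 it was not called (adjusted p = 0.061). Hr39 was at 68.3, 79.8 and 86.3 against 122, 143 and 135 CPM, a smaller difference (-0.77 ± 0.11, adjusted p = 0.0048; its exons overlap mir-9374). The higher members were ftz-f1, described below, and Eip55E, an enzyme of cysteine synthesis (0.34 ± 0.08, adjusted p = 0.026, and up to 0.082 on leaving out FtICD replicate 2 or any 1 wild-type library).

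The ImpE genes, found as ecdysone-inducible genes of imaginal discs, were all lower. ImpE1 had 30.7, 28.4 and 39.7 CPM in FtICD and 128, 197 and 148 CPM in wild type (-2.26 ± 0.20, adjusted p = 0.00071). ImpE3 was at 15.3, 8.97 and 12.2 against 62.3, 97.8 and 87.6 CPM (-2.76 ± 0.24, adjusted p = 0.00075). ImpE2, an apical secreted protein of evaginating discs, was at 1071, 327 and 374 against 4248, 6008 and 4729 CPM (-3.08 ± 0.48, adjusted p = 0.0068), the second largest difference in mean CPM of any called gene after ft. FtICD replicate 1 was the highest of its group and still far below every wild-type library. The receptor gene EcR was not called (0.12 ± 0.14), and its partner usp, whose exons overlap Actn and CG4313, was lower (-1.72 ± 0.33, adjusted p = 0.014) but not without FtICD replicate 2 (0.066) or wild-type replicate 2 (0.054). The early genes br and Eip74EF, at -0.71 ± 0.21 and -1.29 ± 0.41 (exons of br overlap Mur2B), missed the threshold (adjusted p = 0.057 and 0.074), which both passed with DESeq2.

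Of 10 tested genes of larval and pupal identity, chinmo was higher and lncRNA:let7C, the host transcript of the miRNA let-7, lower (1 and 0 without uneven genes), with a median of -0.28. That is 20% called, near the 17.6% of all genes. The level of lncRNA:let7C was 0.44, 0.175 and 0.514 CPM in FtICD and 1.25, 2.44 and 1.33 CPM in wild type (-2.13 ± 0.49, adjusted p = 0.027, and up to 0.093 on leaving out any 1 library but FtICD replicate 3; its exons overlap CG10283, let-7, mir-100 and mir-125). On leaving out 1 library the list had 1 lower without wild-type replicate 3, 2 lower without FtICD replicate 3 and otherwise 0. The nuclear receptor gene ftz-f1, expressed when ecdysone falls and a competence factor for the next pulse, was higher, at 8.27, 9.05 and 11.0 CPM in FtICD and 3.15, 2.74 and 1.65 CPM in wild type (1.92 ± 0.27, adjusted p = 0.005; its exons overlap lncRNA:CR45939). The zinc finger gene chinmo, a factor of early larval identity and a JAK-STAT effector (FBgn0086758, 2L), was at 123, 164 and 153 against 31.0, 37.2 and 21.1 CPM (2.31 ± 0.22, adjusted p = 0.001). Cyp18a1, the cytochrome P450 that inactivates ecdysone, was lower at a low level, with 0.791, 0.601 and 0.631 against 1.84, 2.48 and 3.59 CPM (-1.96 ± 0.34, adjusted p = 0.0096). Of the other genes listed here for ecdysone synthesis and import, 7 of which were tested, only nvd, an enzyme of ecdysone synthesis, was called. It had 2 counts over the FtICD libraries against 113 in wild type, a ratio of 60.3 (95% exact interval 16.3 to 503.7), and lost the call on leaving out any FtICD library or wild-type replicate 3 (adjusted p up to 0.077). The labels give no age within L3, and a difference in the age of the discs cannot be told apart from a difference in genotype.

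**Figure D3:**
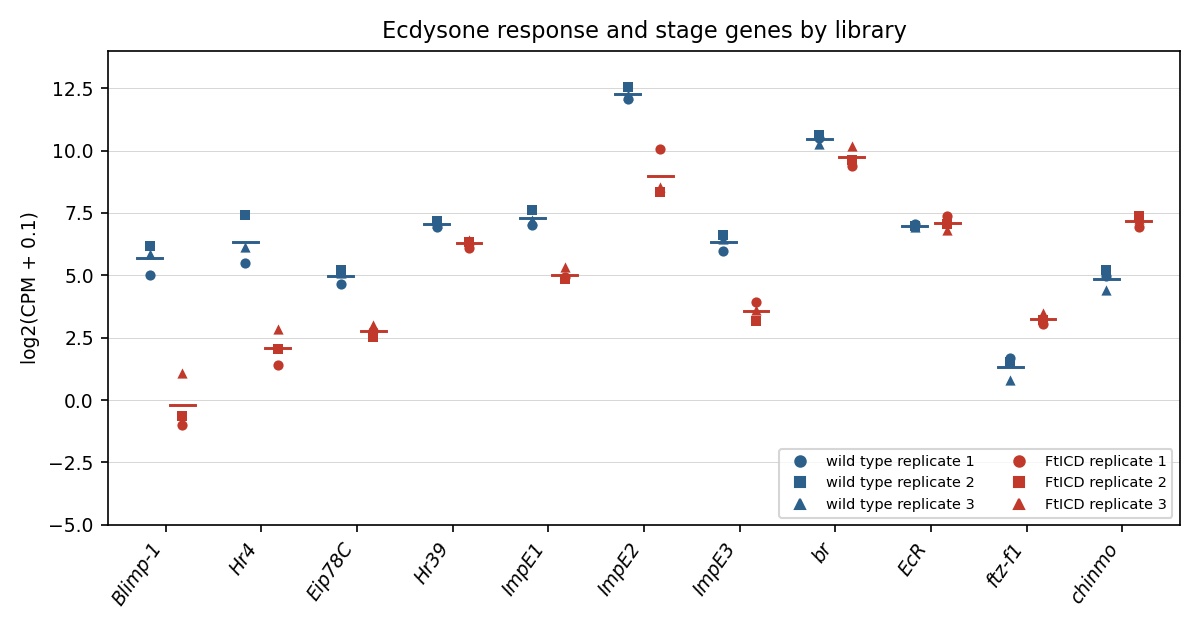
Level of 11 ecdysone response and stage genes in each library, as log2 of CPM plus 0.1; symbols give the replicate, blue the wild type, red FtICD, and bars the mean of 3. Blimp-1, Hr4, Eip78C, Hr39 and the ImpE genes lie lower in every FtICD library, EcR overlaps, br was not called, and ftz-f1 and chinmo lie higher.

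Several posterior and regional patterning genes were lower in FtICD. Of 19 Hedgehog pathway genes tested 3 were lower and 0 higher (2 and 0 without uneven genes). That is 15.8%, near the 17.6% of all genes called in either direction and above the 9.97% called lower. All 3 are genes of the posterior compartment. The ligand gene hh (FBgn0004644, 3R) was at 28.2, 19.4 and 21.4 CPM in FtICD and 63.4, 66.3 and 67.6 CPM in wild type (-1.51 ± 0.15, adjusted p = 0.001). The posterior homeodomain gene inv was at 14.7, 11.0 and 9.65 against 37.4, 38.5 and 22.4 CPM (-1.47 ± 0.25, adjusted p = 0.0092). Its neighbour and partner en was at 15.9, 13.2 and 16.7 against 96.5, 51.3 and 25.2 CPM (-1.92 ± 0.44, adjusted p = 0.026), is uneven within the wild type and lost its call without FtICD replicate 2 (0.11), and also without FtICD replicate 1, FtICD replicate 3 or wild-type replicate 2. The transcription factor ci and the receptor ptc, which are anterior genes, were not called, at -0.06 ± 0.09 and 0.07 ± 0.17. In bulk tissue, fewer cells of a type and less RNA per cell cannot be told apart.

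Among 38 selector and regional genes, 11 were lower and 0 higher (5 and 0 without uneven genes), with a median of -0.34. The share called was 28.9%, against 17.6% of all genes. Without 1 library the number lower was 3 (FtICD replicate 2), 6 (FtICD replicate 3, with 1 higher), 6 (wild-type replicate 1) and 4 (wild-type replicate 2). The POU gene nub, which marks the wing pouch and hinge, was at 105, 66.4 and 63.8 CPM in FtICD and 275, 249.8 and 169 CPM in wild type (-1.56 ± 0.25, adjusted p = 0.0076). The homeodomain gene C15 was at 0.901, 0.927 and 0.631 against 18.4, 17.9 and 10.5 CPM (-4.24 ± 0.30, adjusted p = 0.00033), a difference in which no library came near the other group. The GATA factor gene pnr of the medial notum differed less, at 52.6, 46.2 and 45.6 against 67.5, 72.9 and 68.9 CPM (-0.54 ± 0.09, adjusted p = 0.0079). The other 8 lower genes, tup, Doc3, ara, al, bab1, bab2, noc and lms (whose exons overlap Mgat1), each lost the call on leaving out at least 1 library (FtICD replicate 2 for all 8, adjusted p 0.06 to 0.14, and for all but ara also another library). The wing selector vg and the dorsal selector ap were not called, and their groups overlapped. The level of vg was 56.9, 60.7 and 76.8 CPM in FtICD and 56.8, 86.5 and 51.9 CPM in wild type, and the log2 fold change of ap was -0.07 ± 0.07.

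Of 28 Wingless pathway genes 7 were lower and 0 higher (4 and 0 without uneven genes), 25% called against 17.6% of all genes. The number lower fell to 2 without FtICD replicate 2, 3 without wild-type replicate 1 and 1 without wild-type replicate 2. The ligand gene Wnt4 was at 6.99, 6.79 and 10.1 CPM in FtICD and 19.7, 24.7 and 17.8 CPM in wild type (-1.38 ± 0.21, adjusted p = 0.0059), and it alone of the 7 stayed called in every fit that left out 1 library. The other ligand genes Wnt6 (-1.11 ± 0.24), Wnt5 (-0.998 ± 0.22), Wnt2 (-3.19 ± 0.69) and wg (-0.45 ± 0.13) were called with all 6 libraries and lost the call without FtICD replicate 2 (adjusted p 0.083 to 0.12). The call was also lost without wild-type replicate 1 or 2 for Wnt6 and Wnt5, without FtICD replicate 1 or 3 or wild-type replicate 2 for Wnt2, and without any wild-type library for wg. Dpp and activin genes split, with 2 higher and 3 lower of 24 (2 and 2 without uneven genes), 20.8% called. Leaving out FtICD replicate 2, wild-type replicate 1 or wild-type replicate 2 gave 1 and 1, FtICD replicate 3 gave 2 and 1, and wild-type replicate 3 gave 1 and 2. The secreted Dpp gradient regulator magu was at 217, 234 and 213 against 163, 136 and 151 CPM (0.56 ± 0.09, adjusted p = 0.007; its exons overlap PIG-N and asRNA:CR44297). The activin Smad gene Smox was at 194, 151 and 149.7 against 409, 409 and 279 CPM (-1.15 ± 0.18, adjusted p = 0.0069). The dpp gene itself was not called (-0.17 ± 0.21).

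**Figure D4:**
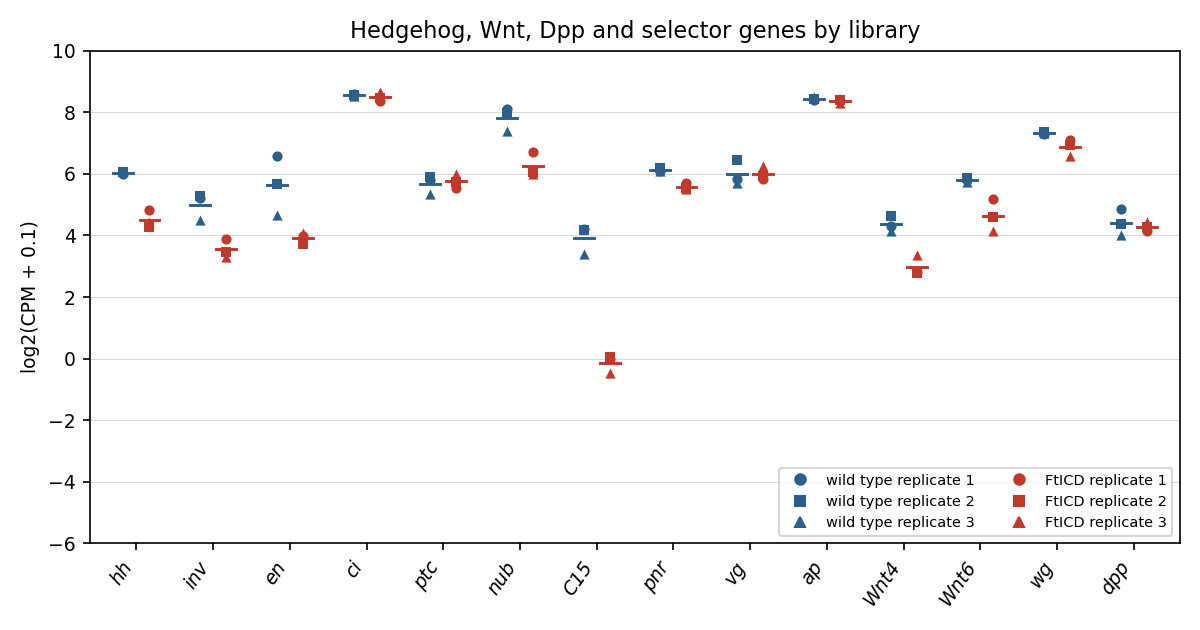
Level of 14 patterning genes in each library, as log2 of CPM plus 0.1; symbols give the replicate, blue the wild type, red FtICD, and bars the mean of 3. The posterior genes hh, inv and en, the regional genes nub, C15 and pnr, and Wnt4 and Wnt6 lie lower in every FtICD library, while ci, ptc, vg, ap and dpp overlap.

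Of 32 Notch pathway genes 1 was higher and 7 lower (1 and 6 without uneven genes), 25% called against 17.6% of all genes. Among the 7, 4 are E(spl) and Bearded family genes, which are expressed in proneural clusters. Without FtICD replicate 2 the list had 1 higher and 2 lower, and without wild-type replicate 2 1 and 4. E(spl)malpha-BFM was at 35.1, 30.2 and 37.8 CPM in FtICD and 56.4, 75.3 and 62.9 CPM in wild type (-0.92 ± 0.14, adjusted p = 0.0058). E(spl)mbeta-HLH, E(spl)m8-HLH and Tom were also called lower, at -0.56 ± 0.11, -0.68 ± 0.18 and -0.41 ± 0.09, and each lost the call without FtICD replicate 2 (adjusted p 0.061 to 0.1). E(spl)m8-HLH kept the call only without FtICD replicate 3, and Tom only without FtICD replicate 1 or wild-type replicate 1. The neurogenic gene bib, which encodes a channel-like membrane protein, was at 65.9, 49.3 and 33.8 against 136, 144 and 149 CPM (-1.53 ± 0.22, adjusted p = 0.0054; its exons overlap lncRNA:CR13130). The bHLH repressor gene dpn was the higher one, at 68.6, 71.9 and 53.6 against 36.0, 39.6 and 31.9 CPM (0.85 ± 0.14, adjusted p = 0.0077; its exons overlap asRNA:CR44275). The receptor N and the ligand Dl were not called, at -0.15 ± 0.23 and -0.19 ± 0.16.

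In the EGF receptor pathway 6 of 26 genes were lower and 0 higher (5 and 0 without uneven genes), 23.1% called against 17.6% of all genes. With upper-quartile scaling 4 were lower and 2 higher. The number lower was 2 without FtICD replicate 2, 3 without wild-type replicate 1 and 1 without wild-type replicate 2, and ed alone held in all 6 such fits. The adhesion molecule gene ed, an antagonist of the receptor, was at 218, 194 and 207 CPM in FtICD and 461, 486 and 334 CPM in wild type (-1.05 ± 0.15, adjusted p = 0.0047; its exons overlap asRNA:CR44984). Egfr itself fell by less, from 274, 284 and 268 CPM in wild type to 214, 200.3 and 169 CPM (-0.50 ± 0.10, adjusted p = 0.015, and 0.056 without FtICD replicate 2, 0.053 without wild-type replicate 1 and 0.058 without wild-type replicate 2). The PDGF/VEGF-type ligand gene Pvf1 was at 1.12, 0.702 and 1.10 against 5.40, 11.0 and 4.50 CPM (-2.83 ± 0.41, adjusted p = 0.0055).

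JAK-STAT genes were 3 higher and 3 lower of 16, 37.5% called against 17.6% of all genes. The counts were 3 and 0 without uneven genes and also 3 and 0 without FtICD replicate 2. Besides chinmo, the repressor gene ken was at 152, 172 and 165 CPM in FtICD and 97.2, 77.5 and 93.0 CPM in wild type (0.87 ± 0.10, adjusted p = 0.0026), and Tep4, a secreted thioester protein gene, at 165, 187 and 157 against 109, 107 and 125 CPM (0.58 ± 0.10, adjusted p = 0.0094). The receptor gene dome was lower and uneven, at 19.2, 13.8 and 9.67 against 123, 79.1 and 36.5 CPM (-2.48 ± 0.46, adjusted p = 0.013, and 0.063 without FtICD replicate 2). The ligand upd3 and the transcription factor Stat92E were not called, at 0.67 ± 0.49 and 0.20 ± 0.07.

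Genes of the Fat and Hippo pathways differed in few members. Of 11 Fat and Dachsous pathway genes, ft aside, only elgi was called, at 0.26 ± 0.07 (adjusted p = 0.049), and not in any fit that left out 1 library (adjusted p up to 0.16); without wild-type replicate 3, 1 other member was lower. Counting ft and elgi, 18.2% of the list was called, near the 17.6% of all genes. The ligand ds was at 206, 262 and 206 CPM in FtICD and 222, 207 and 226 CPM in wild type (0.04 ± 0.11). The kinase gene fj was at 208, 212 and 255 against 336, 315 and 212 CPM (-0.35 ± 0.18, adjusted p = 0.22), and the myosin gene d at -0.06 ± 0.13. For ds, fj and d the groups overlapped.

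Among 29 Hippo cassette genes 2 were lower and 0 higher, 1 and 0 without uneven genes, and 4 and 0 without wild-type replicate 3. With all 6 libraries 6.9% were called, below the 17.6% of all genes. The coactivator gene yki was at 11.8, 7.49 and 7.27 CPM in FtICD and 100.3, 89.4 and 27.6 CPM in wild type (-3.03 ± 0.49, adjusted p = 0.0077). Its wild-type level was uneven, with replicate 3 well below the others, and all FtICD libraries were below it. Cka, a subunit of the STRIPAK complex that restrains Hippo, was even in the wild type, at 115.03, 80.6 and 60.0 against 242, 245 and 229 CPM (-1.48 ± 0.22, adjusted p = 0.0057; its exons overlap CG7367). The kinases hpo and wts were not called, at 0.21 ± 0.09 and -0.09 ± 0.22.

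Of 20 Yorkie target genes 2 were higher and 3 lower, all even, 25% called against 17.6% of all genes. Without FtICD replicate 2, wild-type replicate 1 or wild-type replicate 2 the counts were 2 and 0. The higher ones were chinmo and pav, the latter a kinesin of cytokinesis at 286, 306 and 301 CPM in FtICD and 226, 204.7 and 223 CPM in wild type (0.45 ± 0.07, adjusted p = 0.0084). Diap1, the inhibitor of apoptosis, was at 378, 286 and 279 against 464, 484 and 451 CPM (-0.57 ± 0.13, adjusted p = 0.024). Diap1, dlp and wg, the 3 lower ones, lost their calls on leaving out 1 library. That held for Diap1 with any library but FtICD replicate 1 (adjusted p up to 0.092; its exons overlap asRNA:CR45889), for dlp with any library (up to 0.17) and for wg with FtICD replicate 2 or any wild-type library (up to 0.14). With upper-quartile scaling the list held 3 higher and 1 lower. The feedback target ex lay above the wild type in all FtICD libraries but missed the threshold (237, 272 and 231 against 204, 198 and 204.9 CPM, 0.29 ± 0.08, adjusted p = 0.055; its exons overlap crq), which it passed with DESeq2 and with upper-quartile scaling. Myc and CycE, at 0.16 ± 0.10 and 0.28 ± 0.15, were not called.

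Planar polarity and junction genes were called, in either direction, at shares below the 17.6% of all genes. In the planar polarity list 2 of 18 were lower (11.1%, against 9.97% of all genes), pk and spir, both even. The core gene pk was at 7.497, 6.69 and 6.85 CPM in FtICD and 13.9, 12.8 and 12.2 CPM in wild type (-0.88 ± 0.13, adjusted p = 0.0054), while fz, stan and Vang were not called, at 0.22 ± 0.11, 0.04 ± 0.12 and 0.01 ± 0.07. The call of spir was lost without wild-type replicate 1 (0.066) or 3 (0.051). In the apicobasal list 2 of 32 were lower (4 without FtICD replicate 1), ed and the polarity kinase gene aPKC. The latter was at 108, 116 and 101 against 168, 165 and 161 CPM (-0.60 ± 0.08, adjusted p = 0.0032).

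The listed cell cycle genes that passed the test with all 6 libraries were higher. Of 51 tested, 8 were higher and 0 lower, each with libraries within 2-fold, and the list median was 0.21. With DESeq2 9 were higher and 1 lower, with upper-quartile scaling 20 and 0, and leaving out 1 library gave 6 and 3 (FtICD replicate 1), 3 and 0 (FtICD replicate 2 or wild-type replicate 2), 14 and 0 (FtICD replicate 3), 4 and 0 (wild-type replicate 1) or 4 and 1 (wild-type replicate 3). The condensin subunit gene barr was at 147, 151 and 134 CPM in FtICD and 96.6, 85.8 and 94.1 CPM in wild type (0.64 ± 0.08, adjusted p = 0.0033). The Cdc25 phosphatase gene twe, known for its role in meiosis, was at 18.6, 19.0 and 16.8 against 10.1, 10.8 and 10.4 CPM (0.80 ± 0.11, adjusted p = 0.0044; its exons overlap EndoGI). The mitotic Cdc25 gene stg was at 344, 324 and 268 against 231, 219 and 218 CPM (0.49 ± 0.11, adjusted p = 0.021, and up to 0.078 on leaving out any library but FtICD replicate 3). Only barr, twe and pav stayed called in all 6 fits that left out 1 library. The share of the list called in either direction, 15.7%, is near the 17.6% of all genes. All 8 were higher, though, and the share of all genes called higher is 7.67%. The list leaves out borr, a subunit of the chromosomal passenger complex, which acts in cell division. That gene was lower (-3.18 ± 0.42, adjusted p = 0.0038) and is described below.

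Apoptosis genes split into 4 higher and 2 lower of 13 (3 and 2 without uneven genes), 46.2% called against 17.6% of all genes. Leaving out FtICD replicate 2 or wild-type replicate 2 gave 1 and 1, and leaving out FtICD replicate 3 or wild-type replicate 1 gave 2 and 1. The proapoptotic gene rpr was at 20.5, 23.2 and 23.6 CPM in FtICD and 13.9, 11.5 and 11.9 CPM in wild type (0.85 ± 0.12, adjusted p = 0.0052). The caspase gene Dredd was lower, at 47.4, 48.4 and 44.7 against 66.5, 67.6 and 70.1 CPM (-0.54 ± 0.07, adjusted p = 0.0044; its exons overlap mir-9372). The other 4 called genes, Diap1, Diap2, Dcp-1 and Damm, lost the call on leaving out 1 library. Dcp-1, whose exons overlap pita, lost it with any library (adjusted p up to 0.15), Diap2 with any but wild-type replicate 3 (up to 0.14) and Damm with FtICD replicate 2 or wild-type replicate 2 (up to 0.058; its exons overlap CG42531). Growth control genes were 3 higher and 3 lower of 30 (2 and 3 without uneven genes), 20% called, near the share of all genes. The counts were 2 and 1 without FtICD replicate 2 or wild-type replicate 1. They were 1 and 1 without wild-type replicate 2 and 1 and 2 without wild-type replicate 3. REPTOR, a transcription factor that TOR holds inactive, was at 42.3, 48.6 and 47.5 against 24.4, 21.8 and 23.3 CPM (0.99 ± 0.09, adjusted p = 0.001). Mnt, a repressor that opposes Myc, was at 36.7, 29.3 and 26.0 against 58.3, 66.3 and 56.3 CPM (-0.98 ± 0.14, adjusted p = 0.0055).

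Of 25 JNK and damage response genes 1 was higher and 5 lower (1 and 2 without uneven genes), 24% called against 17.6% of all genes. The kinase adaptor gene Tab2 was at 17.8, 13.2 and 8.65 CPM in FtICD and 59.1, 58.7 and 43.3 CPM in wild type (-2.02 ± 0.27, adjusted p = 0.0038). The matrix metalloproteinase gene Mmp2 was at 6.42, 6.84 and 8.15 against 13.6, 18.0 and 13.9 CPM (-1.09 ± 0.17, adjusted p = 0.0067; its exons overlap asRNA:CR44069). The higher gene was mol, a factor of NADPH oxidase maturation, at 13.1, 17.6 and 11.8 against 5.82, 3.302 and 4.91 CPM (1.60 ± 0.25, adjusted p = 0.0074). The JNK feedback phosphatase puc, a common readout of the pathway, was not called (-0.09 ± 0.13), and Mmp1 was not called either.

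Glutathione S-transferase, cytochrome P450 and UDP-glycosyltransferase genes held several of the largest differences, in both directions. Of 27 glutathione S-transferase genes, which conjugate reactive compounds to glutathione, 7 were higher and 6 lower, 13 of 27 against 17.6% of all genes; without uneven genes 5 were higher and 5 lower. GstD3 (FBgn0010039, 3R) was at 38.9, 37.3 and 33.9 CPM in FtICD and 0.0557, 0.198 and 0.148 CPM in wild type (8.07 ± 0.27, adjusted p = 1.3e-05). GstE1 was at 51.4, 54.5 and 54.5 against 3.06, 1.62 and 2.69 CPM (4.43 ± 0.22, adjusted p = 9.5e-05), and GstT3 at 36.5, 34.3 and 31.4 against 2.14, 1.78 and 2.39 CPM (4.003 ± 0.15, adjusted p = 2.3e-05). For these 3 genes every wild-type library was far below every FtICD library. GstT4 differed less, at 44.1, 45.0 and 44.4 against 11.1, 9.28 and 9.49 CPM (2.16 ± 0.10, adjusted p = 8e-05). On the lower side GstT1 was at 34.3, 26.4 and 33.7 against 53.97, 57.0 and 54.5 CPM (-0.81 ± 0.12, adjusted p = 0.0052), and GstE8 at 6.38, 6.49 and 6.85 against 12.8, 12.6 and 13.8 CPM (-0.99 ± 0.12, adjusted p = 0.0029). Members of the GstD and GstE clusters are similar copies between which reads may be shared. The regulators of the antioxidant response cnc (-0.18 ± 0.16) and Keap1 were not called, and their groups overlapped.

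Of 34 cytochrome P450 genes tested 10 were higher and 3 lower (6 and 3 without uneven genes), 38.2% called against 17.6% of all genes. A further 52 of the 86 in the table were too low to test. Cyp6t3 was at 7.83, 7.64 and 10.8 CPM in FtICD and 0.167, 0.132 and 0.0371 CPM in wild type (6.37 ± 0.45, adjusted p = 0.00033; its exons overlap CG8858). Cyp6a17 had 353 counts over the FtICD libraries and 0 in wild type, at least 110-fold higher with the same floor of 3 counts for a group. Cyp4e2 was at 33.0, 35.7 and 34.3 against 14.1, 12.8 and 13.3 CPM (1.36 ± 0.09, adjusted p = 0.00029). Cyp9c1 was lower, at 37.9, 51.9 and 46.0 against 104, 95.0 and 103 CPM (-1.15 ± 0.12, adjusted p = 0.0016; its exons overlap asRNA:CR43787). Among 5 UDP-glycosyltransferase genes, Ugt86Di was at 4.73, 5.36 and 6.57 against 109, 116 and 121 CPM (-4.38 ± 0.14, adjusted p = 1.3e-05) and Ugt58Fa at 46.0, 60.5 and 43.7 against 23.0, 17.8 and 22.5 CPM (1.25 ± 0.16, adjusted p = 0.0036). The hydrogen peroxide-degrading enzyme gene Cat was lower, at 359, 364 and 335 against 469, 552 and 542 CPM (-0.56 ± 0.09, adjusted p = 0.0072).

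**Figure D5:**
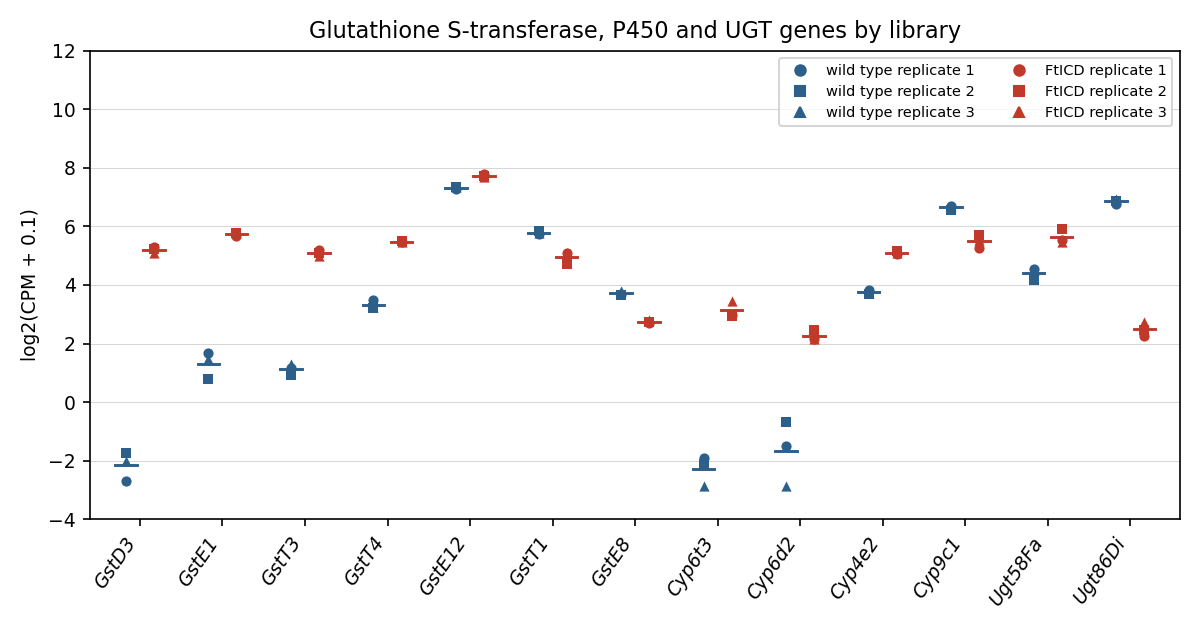
Level of 13 glutathione S-transferase, cytochrome P450 and UDP-glycosyltransferase genes in each library, as log2 of CPM plus 0.1. Symbols give the replicate, blue the wild type, red FtICD, and bars the mean of 3. GstD3, GstE1, GstT3 and Cyp6t3 lie far higher and Ugt86Di far lower in all FtICD libraries.

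Genes of the cuticle and the apical matrix were lower more often than higher, except in the list of other cuticle proteins. Of 31 Cpr cuticle protein genes tested, 3 were higher and 11 lower (2 and 6 without uneven genes), with a median of -0.57. That is 45.2% called, against 17.6% of all genes. A further 39 of the 70 in the table were too low to test. Cpr49Ac was at 35.8, 26.9 and 33.4 CPM in FtICD and 87.6, 173 and 138 CPM in wild type (-2.05 ± 0.25, adjusted p = 0.0028). Cpr65Ec was at 7.19, 4.59 and 7.43 against 16.8, 19.8 and 17.8 CPM (-1.50 ± 0.20, adjusted p = 0.0042). In the opposite direction, Cpr49Ah was at 50.1, 61.3 and 45.8 against 27.0, 18.7 and 21.7 CPM (1.22 ± 0.17, adjusted p = 0.0044). The other cuticle genes, 25 tested, were 3 higher and 1 lower, among them the chitin-binding obst-B at 362, 362 and 361 against 242, 218 and 244 CPM (0.62 ± 0.07, adjusted p = 0.0026). In that list 16% were called, near the 17.6% of all genes.

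The chitinase genes Cht10 and Cht5, which degrade old cuticle at moults, were lower. Cht10 was at 336, 326 and 369 CPM in FtICD and 639.5, 725 and 753 CPM in wild type (-1.04 ± 0.09, adjusted p = 0.0008), and Cht5 at 11.6, 11.0 and 11.1 against 23.4, 25.3 and 27.7 CPM (-1.18 ± 0.11, adjusted p = 0.00081). In the whole chitin list 3 of 20 were higher and 6 lower (3 and 5 without uneven genes), 45% called against 17.6% of all genes. Zona pellucida domain proteins link the apical membrane to the cuticle. Of 14 of their genes 5 were lower and 1 higher (4 and 1 without uneven genes), 42.9% called. The gene pio was at 369, 305 and 328 against 558, 729 and 549 CPM (-0.87 ± 0.13, adjusted p = 0.0067) and neo at 148, 158 and 159.8 against 223, 255 and 267 CPM (-0.68 ± 0.09, adjusted p = 0.0036). The higher one, qsm, was at 390.2, 416 and 401 against 268, 269.7 and 289 CPM (0.55 ± 0.07, adjusted p = 0.0036).

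Serpins, inhibitors of serine proteases, gave 4 higher and 3 lower of 13 tested (3 and 2 without uneven genes). That is 53.8% called, against 17.6% of all genes. Spn43Aa was at 184, 121 and 206 CPM in FtICD and 866, 991 and 901 CPM in wild type (-2.43 ± 0.20, adjusted p = 0.00054; its exons overlap CG12828). Spn100A was at 3.01, 2.08 and 6.57 against 45.6, 96.0 and 84.1 CPM (-4.27 ± 0.49, adjusted p = 0.0023). Spn47C was higher, at 19.9, 21.1 and 26.2 against 1.45, 1.09 and 1.02 CPM (4.24 ± 0.21, adjusted p = 8.4e-05). Spn42De had 2088 counts over the FtICD libraries and 1 in wild type, a ratio of 1958 (95% exact interval 351 to 77358). The protease gene ea, which cleaves the Toll ligand precursor in the embryo, was at 31.6, 35.8 and 25.8 against 0.863, 0.76 and 0.815 CPM (5.25 ± 0.18, adjusted p = 1.4e-05), while the ligand gene spz was lower (-1.32 ± 0.25, adjusted p = 0.013, and 0.056 without FtICD replicate 2). Of 26 immune recognition and signalling genes 6 were higher and 3 lower (5 and 2 without uneven genes), 34.6% called. The counts were 3 and 1 without FtICD replicate 2, wild-type replicate 1 or wild-type replicate 2. Among them GNBP2 was at 16.7, 16.6 and 13.04 against 3.01, 3.80 and 3.85 CPM (2.12 ± 0.18, adjusted p = 0.00057). The engulfment receptor gene drpr was at 80.9, 81.7 and 89.1 against 143, 129.9 and 121 CPM (-0.65 ± 0.09, adjusted p = 0.004; its exons overlap Oseg4).

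Of 8 small heat shock protein genes 4 were lower and 2 higher (3 and 0 without uneven genes), 75% called against 17.6% of all genes. Hsp27, an ecdysone-inducible member, was at 2310.2, 2179 and 2698 CPM in FtICD and 4201, 5499 and 4641 CPM in wild type (-0.997 ± 0.13, adjusted p = 0.0034). Hsp23 was at 353, 236 and 288 against 623, 695 and 680.0 CPM (-1.19 ± 0.15, adjusted p = 0.0031). Hsp67Bc was higher from a low level, at 7.39, 7.79 and 7.92 against 0.779, 1.16 and 1.63 CPM (2.68 ± 0.29, adjusted p = 0.0017). Of 19 Hsp70 and other chaperone genes 1 was higher and 2 lower, below the share of all genes (0 and 2 without uneven genes, 1 and 4 without FtICD replicate 1, 2 and 3 with DESeq2). Hsc70-2 had 0 counts in FtICD and 33.8, 34.8 and 38.2 CPM in wild type, at least 1539-fold lower at that floor. Its gene lies on 3R at 13044759 to 13047388. The gene ry, also lower in FtICD and described below with stock differences, lies near it at 13032528 to 13038020. Whether these falls have a shared origin was not tested. The endoplasmic reticulum chaperone Hsc70-3 was at 1136, 1149 and 1146 against 1476, 1647 and 1715 CPM (-0.50 ± 0.08, adjusted p = 0.0075), and the calcium-binding chaperone Calr at 2439, 2235 and 2512 against 3216, 3437 and 3439 CPM (-0.49 ± 0.08, adjusted p = 0.0069). The cytosolic Hsc70-4 was also unequal within the wild type, with 76.9, 76.2 and 45.1 CPM in FtICD and 442, 80.7 and 61.8 CPM in wild type, and was not called (adjusted p = 0.19). Copies of Hsp70 are nearly identical and their values uncertain, and the rise of Hsp70Bb (3.13 ± 0.68, adjusted p = 0.021) was uneven and lost without FtICD replicate 2 (0.07) or wild-type replicate 3 (0.057).

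Protein synthesis and respiration genes were called, in either direction, at shares below the 17.6% of all genes with all 6 libraries. Of 88 cytosolic ribosomal protein genes 1 was higher and 5 lower, and without uneven genes 1 and 0. RpL18, for example, was at 219, 66.6 and 47.3 CPM in FtICD and 1101, 1076 and 588 CPM in wild type (-3.05 ± 0.61, adjusted p = 0.016). In this list 12 genes were lower without FtICD replicate 1, 1 without wild-type replicate 1 and 0 without FtICD replicate 2 or wild-type replicate 2, where RpL18 was at an adjusted p of 0.073 and 0.056. The translation initiation subunit eIF3a was at 62.4, 35.4 and 24.4 against 422, 390.4 and 166 CPM (-3.0 ± 0.46, adjusted p = 0.0068). Of 35 nuclear complex I genes 3 were lower (2 without uneven genes, and 1 without FtICD replicate 2, FtICD replicate 3, wild-type replicate 1 or wild-type replicate 2), and ND-30 was at 71.1, 66.3 and 60.2 against 105, 100.4 and 109.6 CPM (-0.67 ± 0.09, adjusted p = 0.0032). For respiratory complexes II to V, 5 of 37 nuclear genes were lower (3 without uneven genes), 13.5% against 9.97% of all genes. None of the 5 was called lower in every fit that left out 1 library. The number lower was 9 without FtICD replicate 1, a share above that of all genes, and 1 without FtICD replicate 2. It was 3 without wild-type replicate 1 or 3 and 2 without wild-type replicate 2. Mitochondrial ribosomal protein genes were 2 higher and 2 lower of 73. For proteasome subunits 1 of 35 was lower, 3 without FtICD replicate 1 and 0 without FtICD replicate 2 or wild-type replicate 2 or 3.

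Carbohydrate enzymes gave 1 higher and 4 lower of 19 (1 and 2 without uneven genes, 1 and 7 without FtICD replicate 1). That is 26.3% called, against 17.6% of all genes. Ldh, lactate dehydrogenase, was at 9.19, 8.95 and 12.8 CPM in FtICD and 30.4, 28.04 and 37.1 CPM in wild type (-1.63 ± 0.18, adjusted p = 0.0021). The glucose transporter gene Glut1 was at 28.2, 31.1 and 33.5 against 45.9, 47.2 and 46.1 CPM (-0.58 ± 0.09, adjusted p = 0.0067). The gluconeogenic gene Pepck2 rose, at 11.1, 9.90 and 11.4 against 3.03, 2.54 and 3.50 CPM (1.83 ± 0.18, adjusted p = 0.0011). The citrate synthase gene kdn was lower, at 6.002, 3.88 and 3.95 against 17.4, 18.7 and 12.4 CPM (-1.80 ± 0.24, adjusted p = 0.004). Of 25 lipid genes 5 were higher and 4 lower (4 and 3 without uneven genes), 36% called. The counts were 2 and 2 without FtICD replicate 2, and 2 and 1 without FtICD replicate 1 or any 1 wild-type library. Both members that held in all 6 fits were higher, the fatty acid desaturase Desat1 at 411, 377 and 365 against 292, 265 and 267 CPM (0.49 ± 0.08, adjusted p = 0.009) and the triglyceride-synthesis enzyme mdy at 73.4, 77.2 and 84.3 against 55.7, 56.0 and 52.8 CPM (0.51 ± 0.08, adjusted p = 0.0072). Argk, the arginine kinase that buffers ATP, was at 1749, 1433 and 1894 against 3405, 3141 and 3628 CPM (-1.003 ± 0.12, adjusted p = 0.0025).

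Markers of other cell types moved with genotype in part. The 8 fat body markers, all detected, summed to 518, 1188 and 128 CPM in FtICD replicates 1 to 3 and to 75.5, 149 and 95.7 CPM in wild type. Lsp1alpha, a larval serum protein gene, was at 39.9, 147 and 6.64 against 1.78, 4.69 and 1.19 CPM (4.71 ± 1.15, adjusted p = 0.032), and it and Lsp1beta, the only fat body markers called, were not called without FtICD replicate 2 (0.086 and 0.07) or without any 1 of the wild-type libraries (up to 0.1 and 0.091). The number of these 8 markers called higher was 0 without FtICD replicate 2, wild-type replicate 1 or wild-type replicate 3, 1 without wild-type replicate 2, 6 without FtICD replicate 3, 5 with DESeq2 and 0 with limma-voom. FtICD replicate 3 was near the wild type in this sum. The 9 salivary gland markers summed to 3.47, 3.36 and 23.4 CPM in FtICD and 43.4, 33.1 and 62.8 CPM in wild type, with 1 of 6 tested lower. All 6 were lower without FtICD replicate 3, 0 without FtICD replicate 1, wild-type replicate 2 or wild-type replicate 3, 3 with DESeq2 and 5 with limma-voom. Disc myoblast markers, 7 genes, summed to 244 to 259 CPM in FtICD and 318 to 345 CPM in wild type. Of them 2 were lower (1 without any 1 library but wild-type replicate 3), among these Him (-0.71 ± 0.13, adjusted p = 0.011). Tracheal markers, 8 genes, summed to 1837 to 2051 against 2450 to 2654 CPM, with 2 lower, 1 without FtICD replicate 2 and 0 without wild-type replicate 1 or 2. Haemocyte markers, 8 genes, summed to 177 to 186 against 216 to 246 CPM, with 1 lower. Of the tested markers, 25% were called for fat body, 16.7% for salivary gland and 28.6% for myoblasts. For trachea the share was 25% and for haemocytes 12.5%, against 17.6% of all genes.

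Muscle markers, 12 genes, summed to 439 to 705 CPM in FtICD and 492 to 715 CPM in wild type. Neuronal markers, 8 genes of which VAChT was at 0, summed to 20.1 to 32.3 against 20.8 to 38.7 CPM, and eye disc markers, 6 genes, to 5.79 to 8.79 against 7.41 to 24.4 CPM. In those 3 lists the summed levels of the groups overlapped. Of 11 muscle markers tested, 1 was higher and 2 lower (27.3% called, against 17.6% of all genes). The counts were 1 and 0 without FtICD replicate 2 and 1 and 4 without FtICD replicate 3. Of 3 neuronal markers tested, 1 was higher and 1 lower, and 1 and 0 without wild-type replicate 1 or 2. The higher neuronal marker held in all 6 fits that left out 1 library. Of 4 eye disc markers tested 0 were called, and 1 was lower without wild-type replicate 3. Glial markers, 4 genes, summed to 43.0 to 49.1 against 19.9 to 24.7 CPM, most of it from the glutamine synthetase gene Gs2 (33.6, 38.0 and 34.2 against 12.7, 13.04 and 14.6 CPM, 1.39 ± 0.10, adjusted p = 0.0004). Of the others repo and gcm were too low to test and moody was not called (0.16 ± 0.18). The part of these cell types in the results was not tested.

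Some of the largest differences were in genes with no counts in 1 genotype. Of the called genes 29 had 0 counts in a group, 19 of them in wild type and 10 in FtICD. CG18853 had 13432 counts over the wild-type libraries and 0 in FtICD, at least 4776-fold lower at that floor. CG32581 had 9403 counts over the FtICD libraries and 2 in wild type, a ratio of 4408 (95% exact interval 1220 to 36403). The linker histone genes His1:CG33810 and His1:CG33825 had 2749 counts each in FtICD and 0 in wild type, at least 859-fold higher; they are copies in the histone cluster between which reads cannot be told apart. The xanthine dehydrogenase gene ry, near Hsc70-2 on 3R, was at 0.374, 0.627 and 0.234 CPM in FtICD and 11.5, 8.88 and 9.82 CPM in wild type (-4.61 ± 0.35, adjusted p = 0.00047). The FtICD stock and w1118 may differ elsewhere in the genome, and such stock differences and FtICD itself cannot be told apart here. CG18853 and CG32581 were named after their values were seen.

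Other large differences were in genes of varied function. On the higher side Ect3, a beta-galactosidase-type glycosidase gene, was at 21.9, 18.9 and 25.3 CPM in FtICD and 0.139, 0 and 0.0926 CPM in wild type (8.01 ± 0.45, adjusted p = 0.00015). Ac3, an adenylyl cyclase gene, was at 48.2, 46.5 and 51.9 against 5.85, 4.79 and 4.50 CPM (3.28 ± 0.13, adjusted p = 3.1e-05). The ionotropic receptor gene Ir76a was at 20.6, 18.6 and 20.0 against 0.501, 0.0991 and 0.111 CPM (6.4 ± 0.50, adjusted p = 0.00047; its exons overlap CG14102). On the lower side SK, a calcium-activated potassium channel gene, was at 0.396, 0.476 and 0.701 against 12.1, 16.7 and 14.3 CPM (-4.77 ± 0.27, adjusted p = 0.00015). The retinoid-binding protein gene pinta was at 1.41, 1.13 and 2.03 against 30.4, 29.1 and 29.1 CPM (-4.27 ± 0.22, adjusted p = 0.00011). Osbp, an oxysterol-binding protein gene, was at 6.002, 8.04 and 5.51 against 61.2, 60.2 and 67.4 CPM (-3.27 ± 0.16, adjusted p = 8.4e-05; its exons overlap CG11771). The formin gene DAAM was at 5.25, 2.68 and 3.13 against 46.8, 37.1 and 18.9 CPM (-3.21 ± 0.40, adjusted p = 0.0032) and is uneven. borr, a subunit of the chromosomal passenger complex, was also uneven, at 13.7, 7.82 and 7.36 against 113, 105 and 44.1 CPM (-3.18 ± 0.42, adjusted p = 0.0038). Ude, a uracil-DNA degrading factor gene, was higher, at 22.3, 28.7 and 23.97 against 3.84, 4.26 and 4.47 CPM (2.57 ± 0.15, adjusted p = 0.00015; its exons overlap Ets96B). Among abundant RNA-binding proteins, Hrb27C was at 839, 576 and 714 against 2001, 2274 and 1621 CPM (-1.47 ± 0.17, adjusted p = 0.0025) and rin at 434, 352 and 430.5 against 1095, 1216 and 821 CPM (-1.36 ± 0.16, adjusted p = 0.0025).

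Long non-coding RNAs were called at about the share of all genes, with 33 higher and 21 lower of 321 tested (18 and 13 without uneven genes). Leaving out 1 library gave 21 and 8 (FtICD replicate 2), 18 and 13 (wild-type replicate 1), 22 and 9 (wild-type replicate 2) or 21 and 13 (wild-type replicate 3). Antisense RNAs had 10 higher and 11 lower of 258 (8.14%), and 4 and 4 without uneven genes. Without FtICD replicate 2 they had 3 and 4, without wild-type replicate 1 4 and 4, without wild-type replicate 2 5 and 4, and without wild-type replicate 3 6 and 6. None of the 26 small nucleolar, nuclear and transfer RNAs tested was called by edgeR or DESeq2, and upper-quartile scaling called 1. By chromosome arm, 3R had 180 higher and 222 lower genes of 2246 tested (17.9% called) and 3L 143 and 193 of 1858 (18.1%). For 2R these were 145 and 185 of 1911 (17.3%), and for 2L 158 and 152 of 1644 (18.9%). The X had 87 higher and 174 lower genes of 1573 tested (16.6%), and 71 and 89 without uneven genes. All these shares are near the 17.6% of all genes.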

How the data were processed

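Libraries were made from 10 ng of total RNA with a SMARTer Ultra Low kit and sequenced as paired reads of 150 bases, per the labels' protocols. Tools listed in the submitters' processing notes, with no role or order, are Salmon 1.80, Trimmomatic 0.33, FastQC 0.10 and edgeR, with the build dm6. The deposited values are estimated counts per gene, not normalized by the authors, and 32.0% of nonzero values were not whole (tolerance 1e-06). They were rounded to whole counts here. Genes were placed by gene ID in BDGP6.54, Ensembl release 115 (17083 of 17208).

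Genes were kept with filterByExpr at a minimum count of 10, scaled by TMM and tested by genotype with the two-sided quasi-likelihood test of edgeR 4.0.16 in R 4.3.3, with Benjamini-Hochberg adjustment over 9416 genes at 0.05. The fit had no covariates, and the biological coefficient of variation was 20.6%. Alternatives used DESeq2 1.42.0, limma-voom (limma 3.58.1), other scalings and filters, a replicate block, a roX covariate, and leaving out each library. Within a group the libraries differed beyond sampling noise. Depth was 30886093 to 54256664 counts, and exact intervals and floors of 3 counts cover counting error only. The script for the test was checked on simulated data.

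Gene lists and members were chosen with earlier results of these data known. Named genes were ft, w, the roX genes and Hsc70-4, the largest changes by fold (20 each way among called genes of at least 5 CPM, without annotation-number symbols) and by amount (15), and called or key members of the lists. The text names part of them.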

Additional observations from a re-analysis of the deposited data

How the results depend on the processing

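No called gene changed direction in any of the 15 alternative settings. The number of called genes was 2224 with DESeq2, 1663 with RLE scaling, 1977 with upper-quartile scaling, 1661 without ribosomal RNA and mitochondrial genes, 1605 with no filter on low counts, 1544 at a minimum count of 50, 1500 with the roX covariate and 1630 with limma-voom. Upper-quartile scaling raised the number higher in FtICD to 1146; it moved the median of all genes to 0.10 on the log2 scale. Leaving out 1 library in turn gave 875 to 1561 called genes, 403 to 726 higher, 447 to 974 lower and 291 to 641 lower by at least 2-fold, and the cause of that range was not tested beyond the loss of a sample. Among genes within 2-fold in each group, a restriction chosen after seeing the data and one that leaves fewer genes to count, 585 were lower, 200 higher by at least 2-fold and 243 lower by at least 2-fold. With the replicate number as a block 1139 genes were called, 410 higher and 729 lower. Whether equal replicate numbers pair the libraries cannot be decided here. Correlations of deviations from the group mean were 0.144, 0.00585 and -0.0985 for same-numbered libraries. The first was the highest of all pairs across groups. FtICD replicate 2 was highest with wild-type replicate 3 (0.126) and FtICD replicate 3 with wild-type replicate 2 (0.116). With 3 libraries in each group these correlations are linked and can neither show nor exclude a shared preparation. For single genes named in the text, 2385 values under an alternative setting stayed on the same side of the threshold, 176 were no longer past it and 13 were newly past it.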

Other observations

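Of the 29 called genes with 0 counts in 1 group, 9 lie on chromosome arm 2L, and all 9 had counts only in FtICD. That arm holds 1644 of the 9416 genes tested. The 9 include His1:CG33810 and His1:CG33825, copies between which reads cannot be told apart, so they are not 9 separate results. On 2R 1 such gene had counts only in FtICD and 4 only in wild type, on 3R 4 and 4, on 3L 2 and 1, on X 3 and 0, and on Y 0 and 1. The arm of the transgene insertions is not given in the labels.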
